A study of Gallus gallus with 8 samples.

Results

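GATA2, GATA3, GATA4, GATA5 and GATA6 are the chick genes of the GATA family described here. They were chosen by gene name in the deposited count table, where all 5 names were found once each among 17329 genes. GATA factors are transcription factors that hold DNA through a pair of zinc fingers and are named for the motif GATA. GATA2 and GATA3 are known from blood stem cells, from T cells and the inner ear, and from early non-neural ectoderm, where BMP signals (secreted bone morphogenetic proteins) switch them on and neural-inducing signals keep them off. GATA4, GATA5 and GATA6 are known from heart, endoderm and the extraembryonic endoderm below the epiblast.

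Messenger RNA of chick embryos was sequenced in 8 libraries, 1 per tissue, and no strain or genotype is named in the labels. From pre-streak embryos (stages EGKXII/XIII), anterior and central epiblast were taken. At HH4 (a Hamburger and Hamilton stage), a Hensen's node, the organiser of the chick gastrula, had been placed against the area opaca, the extraembryonic rim of the embryo; its epiblast was taken from the grafted side after 5 hours and from the opposite, ungrafted side of the same embryos. At HH6/7, neural plate, anterior and posterior preplacodal region (the ectoderm that forms cranial sense organs and ganglia) and non-neural ectoderm of the head were dissected. The number of embryos behind a library is not given in the sources used here, and the preplacodal and non-neural libraries came from another laboratory than the rest.

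Levels are given as CPM (counts per 1000000 counts of the library). Library totals lay between 13053810 and 138666339 counts, lowest in both area opaca libraries, so that 3 counts, the floor set for a gene without a count, stood for 0.0216 to 0.230 CPM. With 1 library per tissue no spread between samples is known and no test was made. Intervals in square brackets are exact 95% intervals that cover counting error only. Genes with a CPM ratio of 2 or more in either direction, and with 5 CPM or more in the library where they are higher, are called higher or lower. A gene that reaches 5 CPM in only 1 library of a pair can be called in 1 direction only. This holds for many genes of the lists used here, so their counts of calls depend on this filter. Markers separated the dissections in part. The preplacodal gene EYA2 stood at 78.4 CPM in both anterior and posterior preplacodal tissue, against 13.6 CPM in non-neural ectoderm. Of 6 preplacodal markers tested, 3 were called higher in the anterior and 2 in the posterior region than in non-neural ectoderm, and none lower. Over all genes 6.73% and 6.93% were higher, and 7.22% and 8.48% lower. EYA1 stood at 8.72 CPM in the posterior region, against 12.8 CPM in non-neural ectoderm. The neural gene SOX2 stood at 60.0 CPM in the neural plate, against 0.153 CPM in non-neural ectoderm. Of 12 neural factors tested, 11 were higher in the neural plate than in non-neural ectoderm and none lower. Over all genes 9.18% were higher there and 13.1% lower. Against the anterior preplacodal region 6 of 12 were higher and 1 lower, against 2.86% and 6.6% of all genes. OTX2 (281 against 283 CPM) and LHX5 (194 against 196 CPM) were level between these libraries. In bulk tissue, fewer cells with a transcript and less transcript per cell cannot be told apart.

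GATA2 (ENSGALG00000005909) was the most abundant of the 5 genes per transcript length in every library. It stood at 24.1 CPM in the anterior and 134 CPM in the central pre-streak epiblast. Node-grafted area opaca had 21.0 CPM, against 341 CPM in ungrafted area opaca. At HH6/7 the neural plate had 3.26 CPM, the anterior preplacodal region 272 CPM, the posterior one 196 CPM and non-neural ectoderm 660.0 CPM. The 3 lowest levels were thus those of the neural plate, the node-grafted area opaca and the anterior epiblast, and the other 5 libraries held at least 134 CPM. GATA2 was above 66.6% of genes in anterior epiblast and 63.8% in node-grafted area opaca, against 42.0% in the neural plate. The step from node-grafted area opaca to neural plate (6.44-fold) was larger than that from central to anterior epiblast (5.55-fold). Each step in the order of the 8 levels was larger than counting error. The step from anterior epiblast to node-grafted area opaca was the smallest, at a ratio of 1.15 [1.01, 1.31].

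GATA3 (ENSGALG00000006726) was under 2 CPM in the pre-streak and area opaca libraries. It stood at 0.361 CPM in the anterior and 0.369 CPM in the central pre-streak epiblast, from 36 and 37 counts. Node-grafted area opaca had 0.766 CPM from 10 counts and ungrafted area opaca 1.85 CPM from 27 counts. At HH6/7 the neural plate had 1.38 CPM, the anterior preplacodal region 104 CPM, the posterior one 63.7 CPM and non-neural ectoderm 56.3 CPM. The 3 ectoderm libraries outside the neural plate were high and all others were under 2 CPM. These 3 are also the libraries from the other laboratory, so tissue, stage and laboratory cannot be told apart. Unlike GATA2, GATA3 was highest in the anterior preplacodal region and not in non-neural ectoderm. Among the 5 low libraries no neighbours in the order of levels differed beyond counting error. Libraries further apart in that order did, such as ungrafted area opaca over central epiblast at 5.01 [2.94, 8.46]. In the RefSeq annotation of assembly GRCg7b, GATA3 overlaps 2 long non-coding RNA genes and GATA4 overlaps 1 further RNA gene. Whether counting used strand is not given in the sources used here, so that reads of these genes cannot be told apart from GATA reads.

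GATA4 (ENSGALG00000016662) and GATA6 (ENSGALG00000014976), both best known from heart and endoderm, did not exceed 10.6 CPM in any library. GATA4 stood at 1.21 CPM in the anterior and 7.55 CPM in the central pre-streak epiblast, and at 0.306 CPM in the grafted and 8.58 CPM in the ungrafted area opaca. At HH6/7 the neural plate had no GATA4 count, with the floor of 3 counts at 0.0273 CPM and an exact upper limit of 0.0336 CPM. The anterior preplacodal region had 1.25 CPM of GATA4, the posterior one 1.02 CPM and non-neural ectoderm 8.77 CPM. The 3 highest GATA4 levels were those of the central epiblast, the ungrafted area opaca and the non-neural ectoderm. Neighbours in the order of these 3 levels did not differ beyond counting error. Non-neural ectoderm and central epiblast, at the ends of that order, were not set against each other. GATA6 stood at 1.76 CPM in the anterior and 10.3 CPM in the central pre-streak epiblast, and at 1.84 CPM in the grafted and 10.6 CPM in the ungrafted area opaca. At HH6/7 the neural plate had 0.146 CPM of GATA6, the anterior preplacodal region 1.64 CPM, the posterior one 0.851 CPM and non-neural ectoderm 6.28 CPM. The same 3 libraries were the high ones, with ungrafted area opaca and central epiblast level with each other at a ratio of 1.02 [0.858, 1.21] and non-neural ectoderm below both.

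GATA5 (ENSGALG00000005352), another factor of heart and endoderm, shared features of both patterns. It stood at 1.84 CPM in the anterior and 5.35 CPM in the central pre-streak epiblast, and at 0.230 CPM (3 counts) in the grafted and 2.88 CPM in the ungrafted area opaca. At HH6/7 the neural plate had 0.637 CPM, the anterior preplacodal region 7.27 CPM, the posterior one 7.87 CPM and non-neural ectoderm 13.8 CPM. All 3 ectoderm libraries outside the neural plate were above every earlier library, and both preplacodal levels did not differ beyond counting error. These 3 are also the libraries from the other laboratory, which cannot be told apart from tissue and stage.

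**Figure D1:**
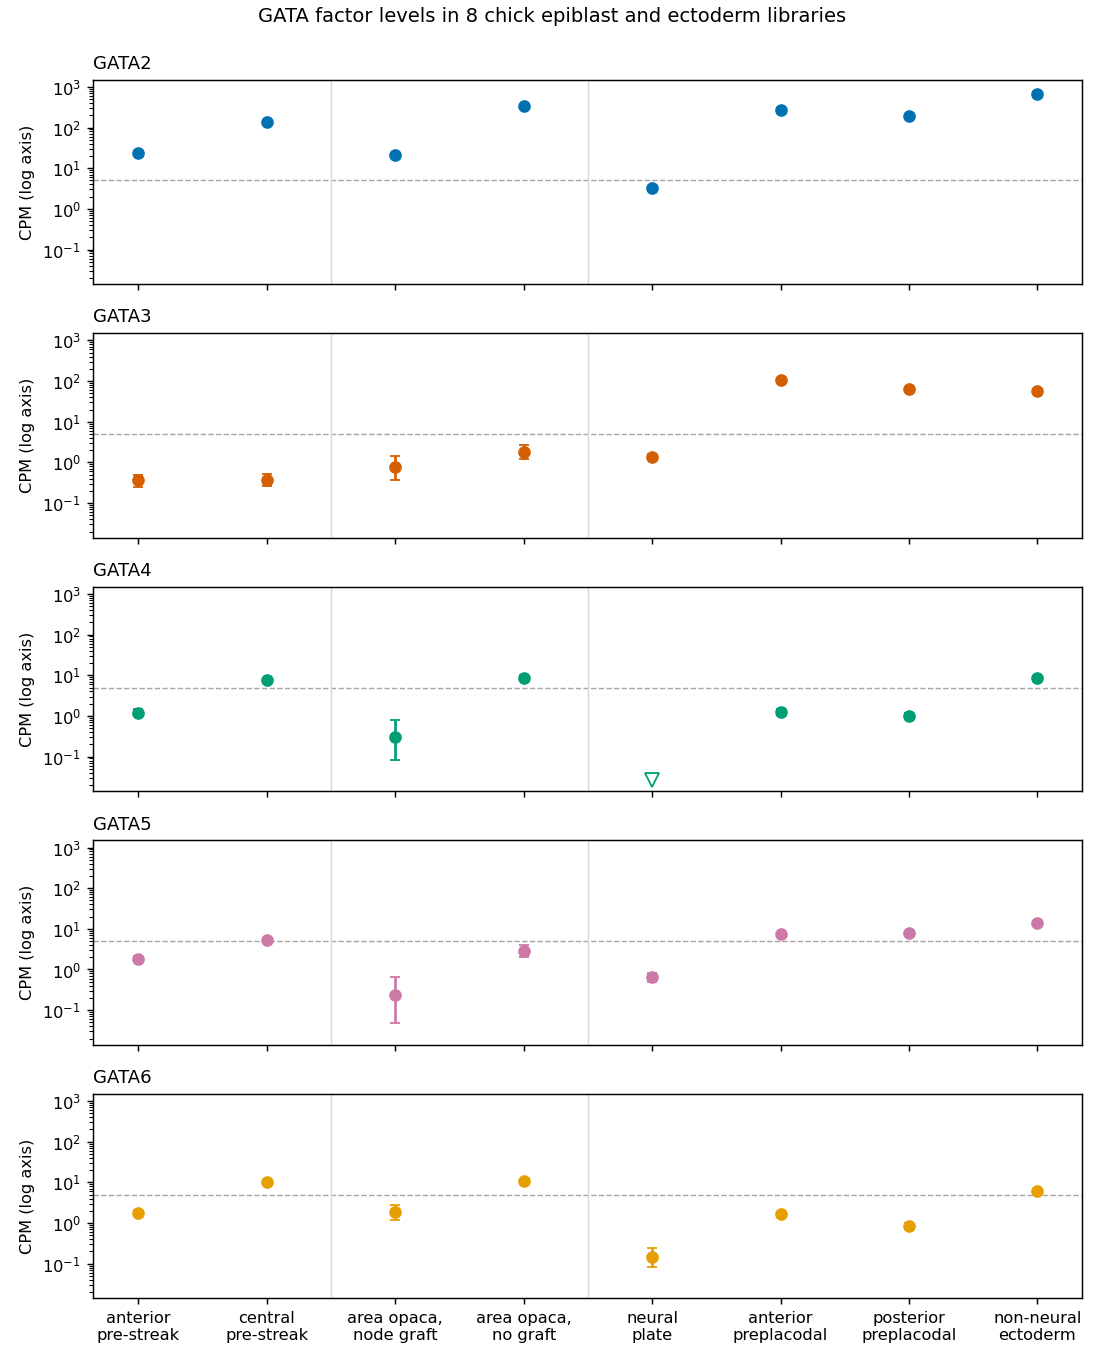
Level of each GATA gene in CPM (log axis) in the 8 libraries, with exact 95% Poisson intervals of the count; the open triangle is the floor of 3 counts for GATA4 in the neural plate, which had none, and the dashed line marks 5 CPM. The neural plate holds the lowest level of GATA2, GATA4 and GATA6, while GATA3 is above 5 CPM in 3 libraries, both preplacodal regions and non-neural ectoderm.

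Levels of different genes can be set side by side only per length, for which the deposited FPKM (fragments scaled by transcript length and by library depth) were used. All 5 genes carry Ensembl identifiers; over 11670 such genes, each of the 8 FPKM columns correlated most closely with the count column of the same tissue (r between 0.895 and 0.968, on values centred per gene). Summed over the 5 genes, FPKM were 20.9 in the anterior and 110 in the central pre-streak epiblast, 16.0 in the grafted and 215 in the ungrafted area opaca. They were 2.87 in the neural plate, 165 and 119 in the anterior and posterior preplacodal region, and 391 in non-neural ectoderm. The sum was thus mostly GATA2, which made up 54.7% of it in the neural plate and between 67.2% and 87.8% in the other 7 libraries. GATA3 made up 12.7% in the neural plate, 16.9% in anterior and 14.3% in posterior preplacodal tissue, 4.22% in non-neural ectoderm, and at most 1.70% in the pre-streak and area opaca libraries. GATA6 took 14.8% and 15.6% in the anterior and central pre-streak epiblast but 1.28% and 0.958% in the anterior and posterior preplacodal region. Per length GATA6 stood at 17.2 FPKM in central epiblast and 16.7 FPKM in ungrafted area opaca. These were near the GATA3 values of 16.9 FPKM in posterior preplacodal tissue and 16.5 FPKM in non-neural ectoderm. Although the anterior and central epiblast differed several-fold in the sum, their shares of GATA2, GATA4 and GATA6 were close, at 67.2%, 5.82% and 14.8% in the anterior against 71.3%, 6.94% and 15.6% in the central epiblast, while GATA5 took 11.6% in the anterior against 6.04% in the central epiblast.

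**Figure D2:**
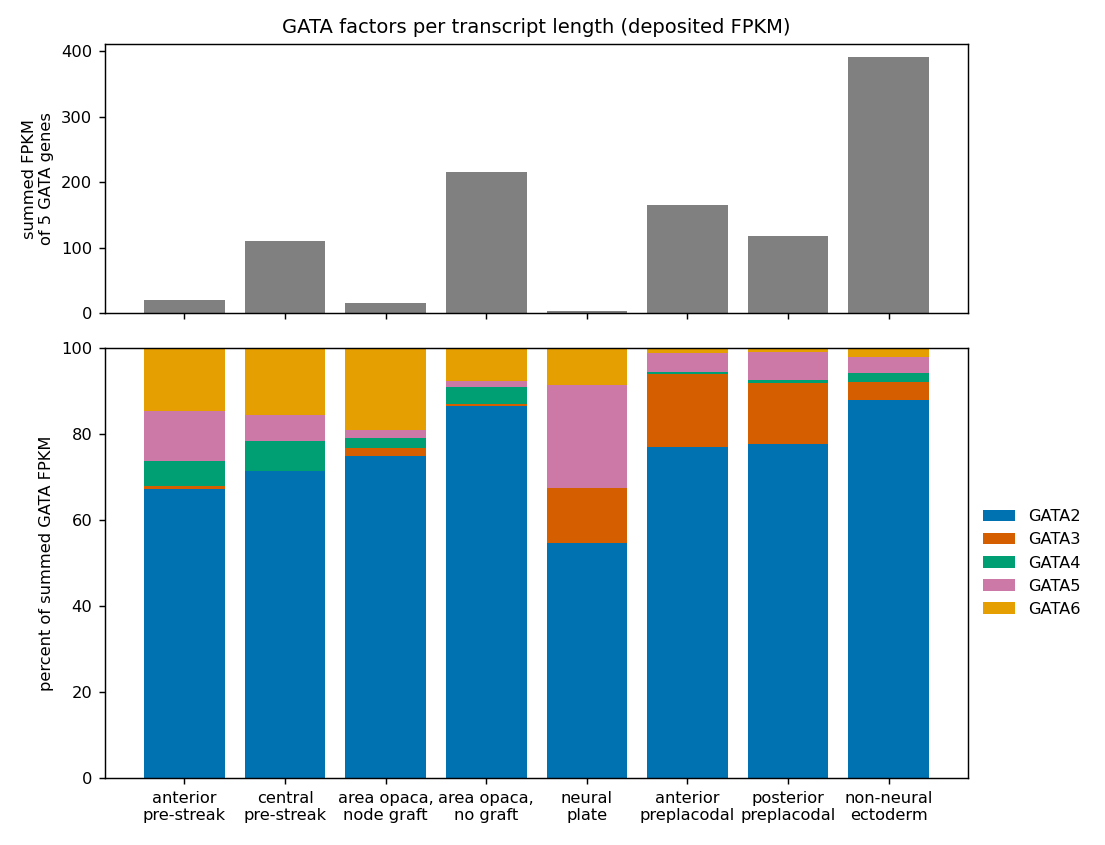
Deposited FPKM of the 5 GATA genes, summed per library (upper bars) and as the percent each gene takes of that sum (lower bars). The sum is 2.87 FPKM in the neural plate and 391 FPKM in non-neural ectoderm, and GATA3 takes 12.7% in the neural plate, 16.9% and 14.3% in the 2 preplacodal libraries and 4.22% in non-neural ectoderm.

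The ratio of one gene's counts to another's within a library does not depend on how libraries are scaled. There were 0.01497 [0.0105, 0.0208] GATA3 counts per GATA2 count in the anterior and 0.00276 [0.00194, 0.00381] in the central epiblast. Node-grafted area opaca had 0.0365 [0.0173, 0.0681], from 10 GATA3 counts, and ungrafted area opaca 0.00544 [0.00358, 0.00792]. At HH6/7 the neural plate had 0.425 [0.349, 0.515], the anterior preplacodal region 0.385 [0.376, 0.394], the posterior one 0.325 [0.317, 0.333] and non-neural ectoderm 0.0854 [0.0824, 0.0885]. The GATA3 to GATA2 ratio was therefore 4.51 times [4.32, 4.70] as high in the anterior preplacodal region as in non-neural ectoderm, and 3.81 times [3.65, 3.98] as high in the posterior one. It did not differ beyond counting error between neural plate and anterior preplacodal region (1.10 [0.906, 1.34]), and was 1.31 times [1.07, 1.59] as high in the neural plate as in the posterior preplacodal region. The neural plate held little of either gene. A higher GATA3 to GATA2 ratio was not particular to the preplacodal regions. It was 6.71 times [2.87, 14.5] as high in grafted as in ungrafted area opaca and 5.42 times [3.32, 8.84] as high in anterior as in central epiblast. In the neural plate it was 4.97 times [4.07, 6.05] as high as in non-neural ectoderm. GATA2 was lower in the first-named library of each of these pairs. GATA5 counts per GATA6 count were 4.43 [3.72, 5.30] in anterior and 9.25 [7.64, 11.3] in posterior preplacodal tissue, against 2.195 [1.94, 2.49] in non-neural ectoderm, and 0.273 [0.189, 0.386] in the ungrafted area opaca.

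The first comparison set area opaca touched by a node for 5 hours, a test of neural induction, against the ungrafted side. GATA2 was 16.2-fold lower [14.4, 18.4] on the grafted side, GATA4 28.0-fold lower [10.7, 104] and GATA6 5.75-fold lower [3.72, 9.24]. The GATA4 value rests on 4 grafted counts. GATA4 and GATA6 reached 5 CPM only in the ungrafted library, so they could be called lower but not higher. All 3 members with at least 5 CPM in a library were called lower, where 8.57% of 9437 genes were (and 7.56% higher). Their median log2 ratio was -4.02, against 0.02 over all genes tested, and GATA4 and GATA2 held positions 24 and 49 from the lowest. The other members were too low for a call. GATA5 was 12.5-fold lower [4.01, 63.2], from 3 grafted counts, and GATA3 2.42-fold lower [1.13, 5.60]. The grafted library held GATA2 near the level of anterior pre-streak epiblast and 6.44-fold [5.48, 7.56] above that of the neural plate. It differs from both in tissue, stage and depth, which cannot be told apart here.

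Anterior and central pre-streak epiblast showed the same side low for 4 members. GATA2 was 5.55-fold lower [5.31, 5.80] anteriorly, GATA4 6.22-fold lower [5.13, 7.60], GATA6 5.85-fold lower [4.98, 6.90] and GATA5 2.92-fold lower [2.46, 3.47]. All 4 members that reached 5 CPM were called lower, where 4.71% of 9312 genes were (and 6.09% higher); their median log2 ratio was -2.51, against 0.00 over all genes. GATA4, GATA5 and GATA6 reached 5 CPM only in central epiblast, so they could be called lower but not higher. GATA2, GATA4 and GATA6 lay close together, at positions 103, 91 and 96 from the lowest. GATA3 differed by no more than counting error, at a ratio of 0.977 [0.600, 1.59].

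At HH6/7, neural plate was set against non-neural ectoderm. GATA2 was 203-fold lower [183, 225] in the neural plate, GATA3 40.7-fold lower [34.6, 48.2], GATA6 43.1-fold lower [26.2, 76.3] and GATA5 21.6-fold lower [16.9, 28.0]. GATA4, without a neural plate count, was 321-fold lower with the floor of 3 counts in its place, a ratio without an interval. The exact upper limit of its neural plate level was 0.0336 CPM, above that floor of 0.0273 CPM. All 5 were called lower, where 13.1% of 10206 genes were (and 9.18% higher). Their median log2 ratio was -5.43 (GATA4 at its floor), against 0.04 over all genes. No member reached 5 CPM in the neural plate, so all 5 were tested only through non-neural ectoderm and could not be called higher. The 2 libraries came from different laboratories, so tissue and laboratory cannot be told apart. Against the preplacodal regions, also from the other laboratory, GATA2 was 83.3-fold lower [75.1, 92.8] in the neural plate than in the anterior and 60.1-fold lower [54.2, 66.9] than in the posterior region. GATA3 was 75.5-fold lower [64.3, 89.2] and 46.0-fold lower [39.2, 54.4] in these comparisons. Of 9952 and 9894 genes tested, GATA2 held positions 12 and 11 from the lowest and GATA3 positions 15 and 14. GATA2, GATA3 and GATA5, the 3 members at 5 CPM, were called lower in both, where 6.6% and 5.03% of genes were (and 2.86% and 2.14% higher). The medians of the 3 were -6.24 and -5.52 log2, against 0.00 over all genes in both. GATA4 and GATA6, under 5 CPM in these libraries, were too low for a call. GATA6 was 11.3-fold lower [6.73, 20.2] than in the anterior and 5.84-fold lower [3.45, 10.6] than in the posterior region. GATA4, at the floor of 3 counts in the neural plate, was 45.7-fold and 37.5-fold lower. These comparisons share the neural plate library, where no member reached 5 CPM, so no member could be called higher in them.

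The preplacodal regions differed from the non-neural ectoderm beside them in a gene-specific way, within 1 laboratory. GATA2, GATA4 and GATA6 were lower in the anterior region, by 2.43-fold [2.39, 2.47], 7.03-fold [5.76, 8.65] and 3.83-fold [3.17, 4.64]. In the posterior region they were lower by 3.37-fold [3.32, 3.42], 8.56-fold [7.10, 10.4] and 7.38-fold [5.99, 9.16]. These 3 of 5 members were called lower in each, where 7.22% of 10151 and 8.48% of 10137 genes were (and 6.73% and 6.93% higher). Over the 5 members the median log2 ratio was -1.28 in the anterior and -1.75 in the posterior comparison, against 0.04 and 0.05 over all genes. GATA3 and GATA5 passed no call: GATA3 had ratios of 1.85 [1.78, 1.93] and 1.13 [1.09, 1.18] over non-neural ectoderm, and GATA5 of 0.527 [0.476, 0.584] and 0.570 [0.520, 0.626]. Both comparisons share the non-neural library. GATA4 and GATA6 reached 5 CPM only in that library, so they could be called lower but not higher.

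Between anterior and posterior preplacodal region no member was called, where 0.791% of 9856 genes were called higher and 0.7% lower. GATA3 had the largest ratio of the members that reached 5 CPM, at 1.64 [1.59, 1.69] anterior over posterior and position 172 from the highest, and GATA2 had 1.39 [1.36, 1.41]. GATA6, under 5 CPM in both, was 1.93 times [1.51, 2.47] as high anteriorly, while GATA5 (0.924 [0.839, 1.02]) and GATA4 (1.22 [0.947, 1.56]) did not differ beyond counting error.

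**Figure D3:**
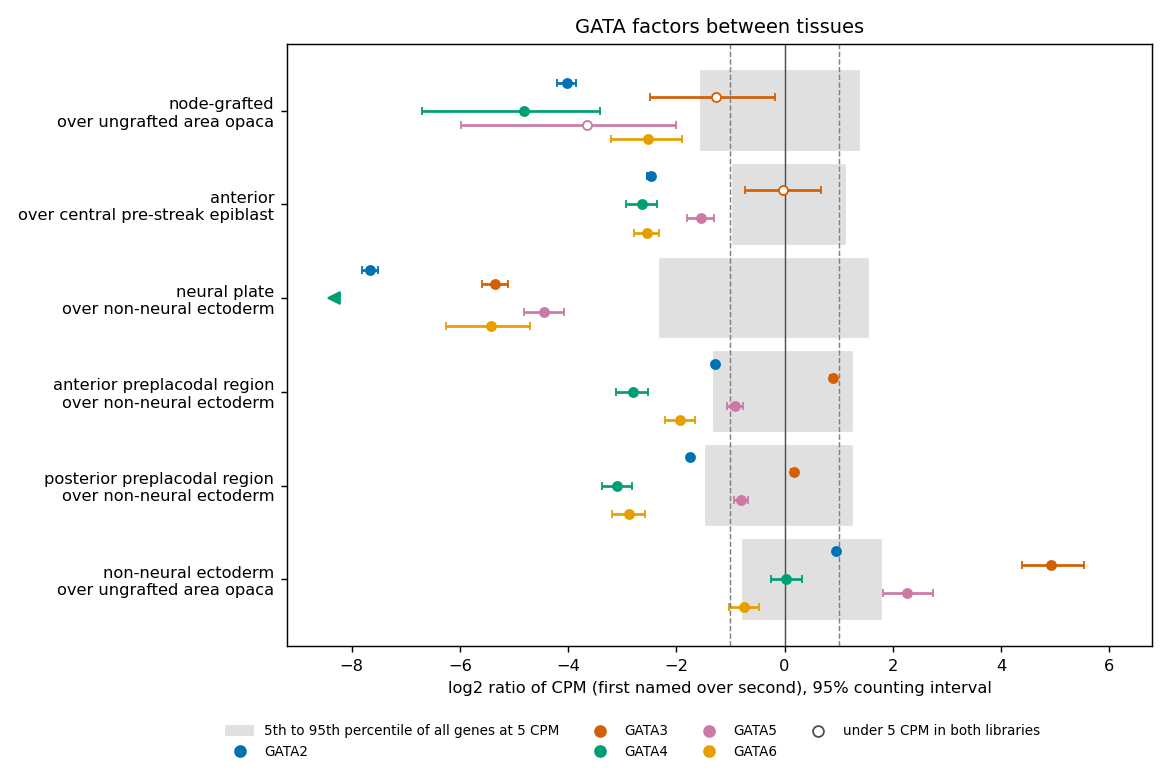
Log2 CPM ratios of the 5 GATA genes in 6 comparisons, the first-named tissue over the second, with exact 95% counting intervals; the triangle is GATA4 set against the floor of 3 counts, and dashed lines mark 2-fold. Grey bands span the 5th to 95th percentile of all genes at 5 CPM; in neural plate over non-neural ectoderm the 5 genes lie between -8.33 and -4.44, below the band's lower end at -2.31.

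The members differed in how they compared across stages. Non-neural head ectoderm at HH6/7 was set against ungrafted area opaca, taken 5 hours after embryos were grafted at HH4; tissue, stage and laboratory cannot be told apart here. Both area opaca columns also lack the name prefix that the other 6 libraries share and have the lowest depth. GATA3 was 30.4-fold higher [20.9, 46.2] in non-neural ectoderm and GATA5 4.79-fold higher [3.51, 6.69]. These 2 of 5 members were called higher, where 14.8% of 9846 genes were (and 2.75% lower). GATA3 and GATA5 reached 5 CPM only in non-neural ectoderm, so they could be called higher but not lower. GATA3 held position 23 from the highest. GATA2 passed no call at a ratio of 1.94 [1.88, 1.995], GATA4 was level at 1.02 [0.839, 1.25] and GATA6 had a ratio of 0.595 [0.491, 0.722]. The median over the members was 0.95 log2, against 0.13 over all genes, and scaling by TMM factors would lower every log2 ratio of this comparison by 0.18.

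Ungrafted area opaca was also set against the earlier central epiblast, from the same laboratory by the labels but with the difference in column name and depth just given, which cannot be told apart from tissue and stage. GATA2 was 2.55-fold higher [2.47, 2.63] in the area opaca and was the 1 member called higher among the 4 at 5 CPM, where 14.9% of 9482 genes were (and 10.4% lower); the 4 had a median of 0.11 log2, against 0.05 over all genes. GATA4 (1.14 [0.933, 1.38]) and GATA6 (1.02 [0.858, 1.21]) were level and GATA5 had a ratio of 0.538 [0.384, 0.738]. GATA3 was 5.01 times [2.94, 8.46] as high but under 5 CPM in both. In the neural plate GATA2 was 7.40-fold lower [6.62, 8.29] than in anterior pre-streak epiblast, the 1 member tested and called lower there, where 4.75% of 9789 genes were (and 14.8% higher); the median over all genes was 0.18 log2. GATA2 reached 5 CPM only in the anterior epiblast of this pair, so it could be called lower but not higher. GATA3, at 1.38 CPM in the neural plate, was 3.83 times [2.65, 5.68] its anterior pre-streak level. GATA6 was 12.1-fold lower [7.26, 21.7] in the neural plate and GATA5 2.88-fold lower [2.18, 3.85], all under 5 CPM. GATA4, also under 5 CPM and without a neural plate count, was 44.4-fold lower with the floor of 3 counts in its place.

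Profiles were then compared over the 8 libraries by the root mean square difference (RMS) of log2(CPM + 1), each gene centred on its own mean; the 8 points share library depth and laboratory. Among the members, GATA4 and GATA6 lay closest, at an RMS of 0.42, and GATA3 and GATA6 furthest apart, at 3.0. Of 8355 genes, 2 lay nearer to GATA4 than GATA6 did. GATA2 and GATA3 differed by 2.15. Adding 1 CPM narrows the differences of genes with low levels, so RMS values of different pairs are not on 1 scale. GATA5 lay at 1.07 from GATA4, 1.29 from GATA6, 1.44 from GATA2 and 1.87 from GATA3. Seen from GATA5, 1076, 5775, 7360 and 8103 genes lay nearer than these members, in that order. Seen from these members, 629, 4907, 61 and 129 genes lay nearer than GATA5. The 5 genes nearest to GATA2 were RREB1, a zinc finger transcription factor, at 0.89, the RNA-binding protein RBM47 at 0.90, the sodium chloride cotransporter SLC12A3 at 0.94, the LIM protein CSRP2 at 0.96 and MSX2, a homeobox factor downstream of BMP, at 0.97. The median of all genes was 2.35. MSX2 stood at 0.510 CPM in the neural plate and 89.7 CPM in non-neural ectoderm.

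The 4 genes nearest to GATA3 were VWDE at 0.58 and the homeobox genes DLX5 at 0.97, DLX3 at 1.08 and DLX6 at 1.13, against a median of 2.56. DLX5 had its highest level, 233 CPM, in the anterior preplacodal region, as GATA3 did, with 141 CPM in the posterior one and 99.1 CPM in non-neural ectoderm. DLX6 stood at 60.6 and 52.3 CPM in the anterior and posterior preplacodal region but at 4.43 CPM in non-neural ectoderm, where GATA3 held 56.3 CPM. GATA4 had DPP4, BAIAP2, GRHL1, LIMK2 and DAB2 nearest (0.30 to 0.45, against a median of 1.33). GATA6 had ADAMTS9, ASPHD2, F8, GJB2 and FLVCR2 nearest (0.23 to 0.38, against a median of 1.24). GRHL1 is a grainyhead factor of surface epithelium, GJB2 a gap junction protein and DAB2 an endocytic adaptor. GATA5 had SSPO, SMAD6, GRB7, GRIN3B and RBM20 nearest (0.47 to 0.54, against a median of 1.23). Of these, SMAD6 is an inhibitor within the BMP pathway, at 5.33 CPM in the neural plate and 37.6 CPM in non-neural ectoderm. The neighbours depended on the measure. With a pseudocount of 0.25 in place of 1, 3 of the 5 nearest stayed for GATA2, 4 for GATA3, 1 for GATA4, 4 for GATA5 and 2 for GATA6. Ranked by Pearson correlation, 0, 1, 3, 0 and 1 of them stayed in the same order of members.

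**Figure D4:**
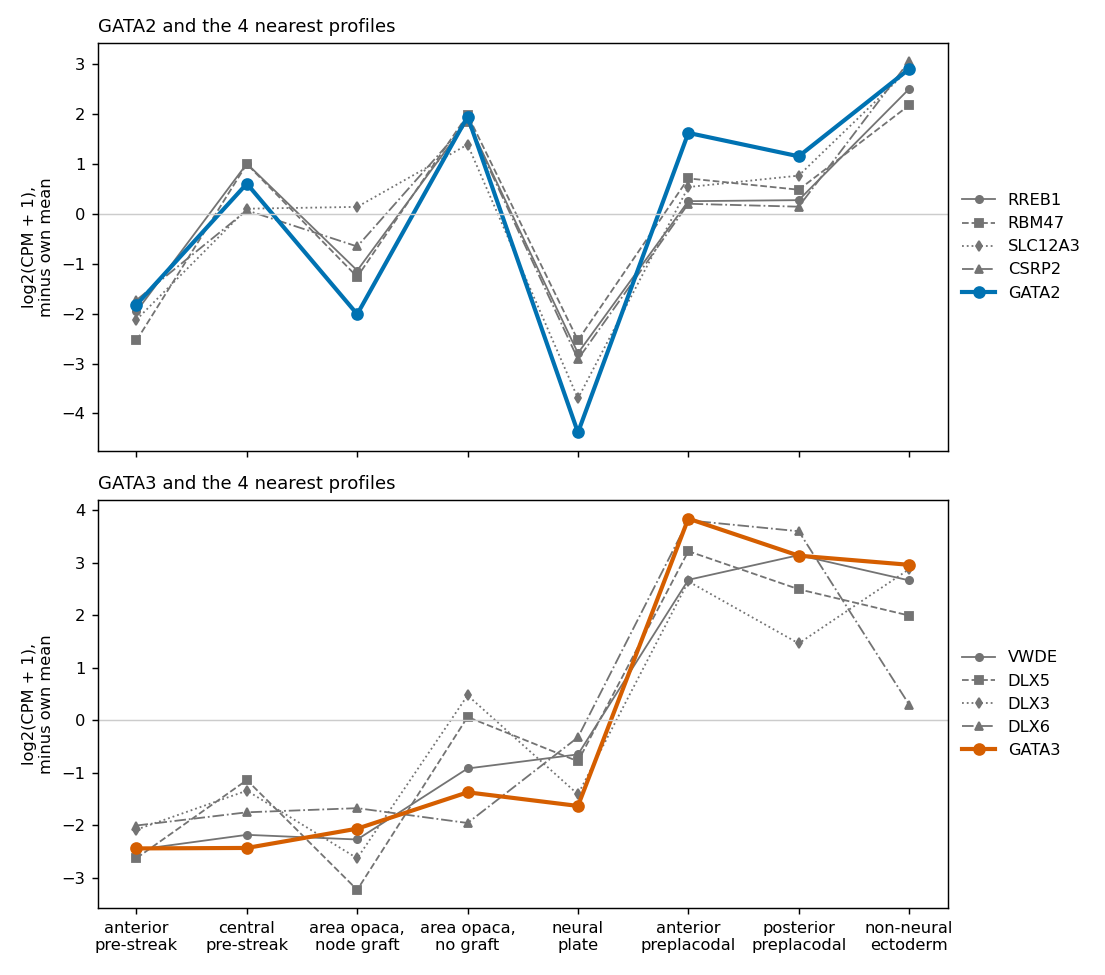
Profiles of GATA2 (upper panel) and GATA3 (lower panel, colour) with their 4 nearest genes (grey), as log2(CPM + 1) minus each gene's own mean over the 8 libraries. GATA2 dips in the anterior epiblast, the grafted area opaca and the neural plate, while GATA3 and its neighbours VWDE and DLX5 are high in both preplacodal regions and in non-neural ectoderm.

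Proteins that work with GATA factors were followed as a list of 13 genes, of which 12 were matched. The co-regulator ZFPM1, a Friend of GATA protein, stood at 5.52 CPM in the grafted and 28.7 CPM in the ungrafted area opaca, 5.20-fold lower, and was the 1 partner called lower of 8 tested there; TCF12, an E protein, was the 1 called higher (839 against 366 CPM). With 8.57% of all genes lower and 7.56% higher, 1 of 8 in each direction was near the share over all genes, and the median of the 8 was 0.12 log2. In the neural plate against non-neural ectoderm 3 of 10 were lower: ZFPM2, the second Friend of GATA gene (1.13 against 14.0 CPM), LMO2 (2.85 against 19.0 CPM) and ZFPM1 (16.2 against 54.9 CPM). The LIM-binding gene LDB2 was the 1 called higher there, where 13.1% of all genes were lower and 9.18% higher, and the median was -0.11 log2. In the anterior over central epiblast none of 8 was called in either direction (median 0.25 log2), and ZFPM1 stood at 9.91 against 16.6 CPM. In the anterior and posterior preplacodal regions LMO2 alone of 10 partners was lower than in non-neural ectoderm in each, and TCF12 and LDB2 were higher in each (medians 0.06 and -0.01 log2). LMO2 is also among the blood and endothelial markers summed below, whose sum was highest in non-neural ectoderm. The 1 of 10 lower was near the 7.22% and 8.48% of all genes that were lower there, while 6.73% and 6.93% were higher. Genes with other GATA-type zinc fingers were a list of 10, of which 7 were matched; GATA1 was not matched by name. TRPS1, a repressor that binds GATA motifs, was lower in the grafted area opaca (4.67 against 9.61 CPM) and in the neural plate (3.504 against 13.2 CPM in non-neural ectoderm). MTA1, a subunit of the NuRD chromatin complex, was higher in these comparisons, at 519.6 against 98.8 CPM and at 274 against 125 CPM. These were 1 of 7 genes lower and 2 higher on the grafted side (median 0.32 log2), with GATAD2B the other higher one. In the neural plate 1 of 7 was lower and 1 higher (median 0.55 log2). Over all genes 8.57% were lower and 7.56% higher on the grafted side, and 13.1% and 9.18% in the neural plate. With 7 genes, 1 in a direction was near these shares.

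Ligands, receptors and targets of BMP were a list of 28 genes, of which 27 were matched. On the grafted side 8 of 19 tested were lower, against 8.57% of all genes, and 1 was higher, against 7.56%, with a median of -0.60 log2. The higher one was the BMP antagonist CHRD (8.04 CPM, with no count on the ungrafted side). The ligand BMP2 stood at 5.75 against 39.4 CPM, the signal transducer SMAD9 at 0.460 against 5.76 CPM and the inhibitor SMAD6 at 4.06 against 21.0 CPM. SMAD9 and SMAD6 reached 5 CPM only on the ungrafted side and could be called lower but not higher. The reverse held for CHRD. In the neural plate over non-neural ectoderm 9 of 22 were lower and 2 higher, against 13.1% and 9.18% of all genes (median -0.64 log2), the ligand antagonists FST (129 against 1.87 CPM) and CHRD (19.4 against 1.77 CPM) being the higher ones. In the anterior over central epiblast 5 of 19 were lower and 3 higher, against 4.71% and 6.09% of all genes (median -0.03 log2). The lower ones were BMP2 (0.862 against 13.8 CPM), BMP7 (37.4 against 294 CPM), BMP4 (6.16 against 41.6 CPM), ID2 and SMAD6. The higher ones were the ligand ADMP (107 against 1.73 CPM), CHRD (81.6 against 3.52 CPM) and the pseudoreceptor BAMBI (57.3 against 26.8 CPM). In the anterior preplacodal region over non-neural ectoderm 5 of 22 were lower and 2 higher, against 7.22% and 6.73% of all genes (median 0.00 log2). BMP7 was among the lower ones (65.0 against 299.8 CPM), and FST (14.1 against 1.87 CPM) and CHRD (6.22 against 1.77 CPM) were the higher ones.

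Other transcription factors of non-neural ectoderm and the neural plate border were a list of 22, of which 20 were matched. Of those tested, 11 of 13 were lower and 1 higher on the grafted side, against 8.57% and 7.56% of all genes (median -3.20 log2), the higher one being TFAP2C, an AP-2 factor, at 167 against 81.3 CPM. GRHL3, DLX3, DLX5, MSX2, ELF3, ELF5 and TFAP2E reached 5 CPM only on the ungrafted side, so they could be called lower but not higher. In the neural plate over non-neural ectoderm 12 of 15 were lower and 1 higher, against 13.1% and 9.18% of all genes (median -2.86 log2); the higher one was PAX-7, a border and neural crest factor, at 24.6 against 0.136 CPM. In the anterior over central epiblast 7 of 10 were lower and none higher, against 4.71% and 6.09% of all genes (median -1.67 log2). In the anterior preplacodal region over non-neural ectoderm 5 of 16 were lower and 3 higher, against 7.22% and 6.73% of all genes (median -0.26 log2). Here the grainyhead factor GRHL3 was 24.8-fold lower (12.8 against 318 CPM), while PITX1, DLX6 and DLX5 were higher, at 6.77 against 0.306 CPM, 60.6 against 4.43 CPM and 233 against 99.1 CPM.

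Since GATA factors are also genes of heart, endoderm and blood, markers of these tissues were summed in each library. The 16 matched markers of hypoblast, endoderm and yolk summed to between 83.6 CPM in the grafted area opaca and 246 CPM in non-neural ectoderm. These sums also rest on different genes. The neural plate held 186 CPM, of which VTN gave 111 CPM and APOA1 37.1 CPM. In central epiblast RBP4 gave 58.8 CPM and VTN 50.5 CPM. Anterior epiblast held 187 CPM of them and central epiblast 155 CPM. Of the 7 tested there, 4 were higher anteriorly, among them VTN (101 against 50.5 CPM). The retinol carrier RBP4 was the 1 lower (5.78 against 58.8 CPM), as GATA4 and GATA6 were. Over all genes 6.09% were higher anteriorly and 4.71% lower. On the grafted side 3 of 6 markers were lower and 2 higher, against 8.57% and 7.56% of all genes. The lower ones were TTR, RBP4 (5.44 against 31.6 CPM) and APOA1 (5.98 against 20.7 CPM), and the higher ones CXCR4 (13.4 against 5.21 CPM) and GJB1 (6.13 against 2.81 CPM). The part of such cells in the GATA4 and GATA6 levels was not tested. The endoderm factor SOX17 had no count in the 6 libraries after the pre-streak stage. The transport protein TTR stood at 0.230 CPM in the grafted and 7.55 CPM in the ungrafted area opaca, and at 34.3 CPM in non-neural ectoderm. The 20 mesoderm and heart markers summed to 49.2 CPM in the neural plate and to 109 and 92.8 CPM in the anterior and posterior preplacodal region, against 259 CPM in non-neural ectoderm. They summed to 395 CPM in the anterior and 337 CPM in the central epiblast, and to 268 CPM in the grafted and 81.0 CPM in the ungrafted area opaca. Few genes made up these sums. TBX6 held 174 CPM and EOMES 146 CPM in the anterior epiblast, and EOMES held 202 CPM in both central epiblast and grafted area opaca. In non-neural ectoderm EOMES stood at 2.45 CPM and TNNT2 at 67.5 CPM, so the sums of different libraries rest on different genes. HAND1, also a gene of extraembryonic ectoderm and lateral mesoderm, stood at 80.8 CPM in non-neural ectoderm. The cardiac factor NKX2-5 stood at 12.5 CPM in anterior and 5.24 CPM in posterior preplacodal tissue, against 0.579 CPM in non-neural ectoderm, and HAND2 had no count anywhere.

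The 17 blood and endothelial markers summed to 82.1 CPM in non-neural ectoderm, with 10 of 17 at 1 CPM or more, and to between 14.9 and 23.8 CPM in the other 7 libraries. In non-neural ectoderm LMO2, also counted among the GATA partners, stood at 19.0 CPM. The endothelial receptor KDR stood there at 32.8 CPM, the endothelial cadherin CDH5 at 8.31 CPM and TAL1 at 2.38 CPM, while the globin HBZ stood at 0.221 CPM and SPI1 had no count. Their sum was thus highest in the library that also had the highest GATA2 and GATA5. GATA4 was level there with ungrafted area opaca (8.77 against 8.58 CPM), where the markers summed to 14.9 CPM. The sums of 10 surface epithelium markers and of the endoderm markers were also highest in non-neural ectoderm, at 5293 and 246 CPM. The part of blood and endothelial cells in the GATA levels was not tested.

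**Figure D5:**
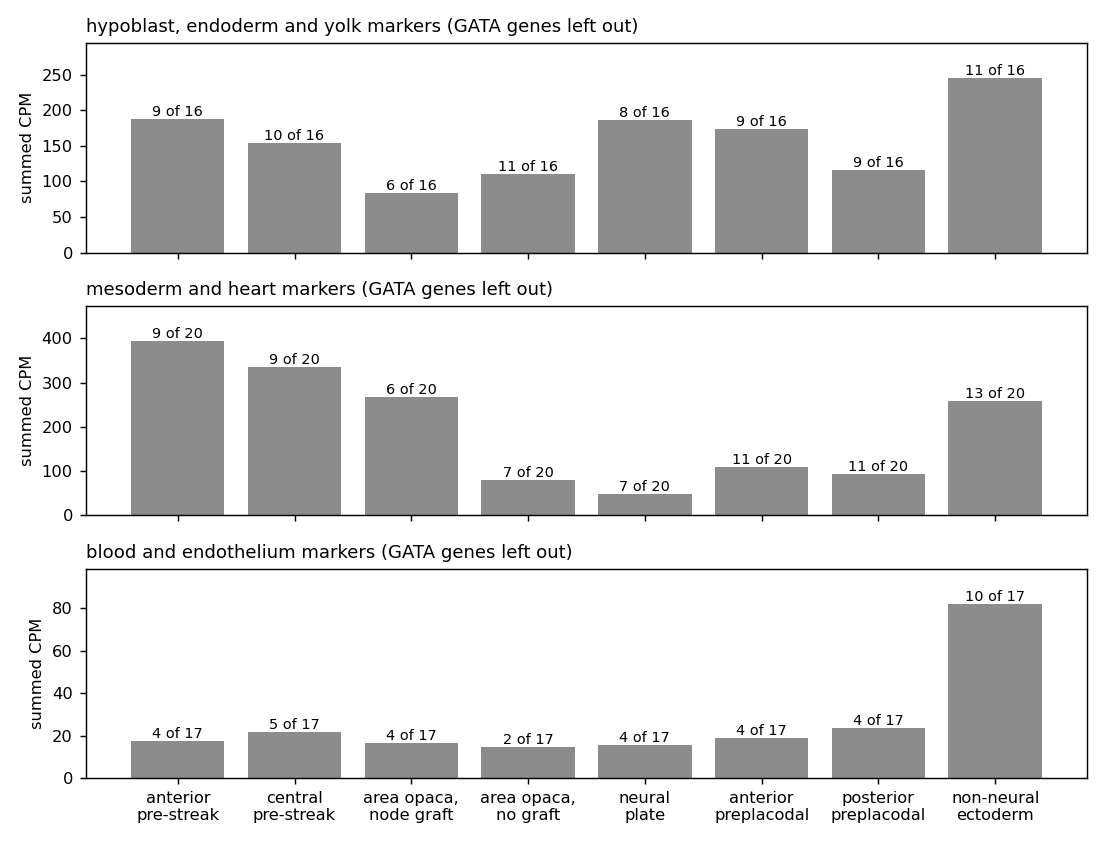
Summed CPM of marker genes of 3 other tissues in each library, GATA genes left out; numerals over the bars give how many of the matched markers reach 1 CPM. Blood and endothelium markers stand at 82.1 CPM in non-neural ectoderm, against 14.9 to 23.8 CPM elsewhere. In the grafted area opaca EOMES alone gives 202 of the 268 CPM of mesoderm and heart markers.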

How the data were processed

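Raw counts for each gene in 8 libraries, 1 per tissue, were deposited by the authors, who made the libraries from total RNA with an Illumina TruSeq V2 kit, per the labels' protocols. The deposited FPKM table holds FPKM that the authors computed. The submitters' processing notes name TopHat2 and galGal4 without versions; no source used here gives the counting program, annotation or strand setting. Columns were matched to samples by the tissue codes in their names. The prefix p of the non-neural count column is absent from its label.

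CPM were computed as count over column total. Ratios carry exact Clopper-Pearson intervals on the split of the summed counts, levels exact Poisson intervals, and ratios of ratios the exact conditional interval of an odds ratio. The call rule (ratio of 2, 5 CPM) was tested on simulated data that held counting error only. Such data cannot show how the rule behaves under variation between embryos, dissections or libraries. Members, gene lists and rules were chosen with earlier results of these data known. Genes were named by membership, by list (up to 4 with the highest and 4 with the lowest ratios among those at 5 CPM, with further list members named after their values were seen), or as the 5 nearest profiles among genes with 10 CPM in a library and no placeholder symbol; 1 of these neighbours is not reported here. Lists were matched by name or RefSeq synonym. Alternatives were TMM factors (edgeR 4.0.16) and DESeq2 1.42.0 size factors, other thresholds, FPKM with pseudocounts of 1 and 0.1, and totals of Ensembl genes. Neither tool's test was used. Software was R 4.3.3, scipy 1.17.1, numpy 2.4.6, pandas 2.3.3 and matplotlib 3.10.9 under Python 3.11.15.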

Additional observations from a re-analysis of the deposited data

How the results depend on the processing

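No alternative turned round a call of a GATA gene. Of 99 recounts of called members, 87 stayed within 1.5 times the reported count. With a minimum of 1 CPM or of 3 counts, all 5 members were called on the grafted over ungrafted side (5 lower), in neural plate over anterior preplacodal region (5 lower) and in neural plate over anterior pre-streak epiblast (4 lower, GATA3 higher), and 2 were called higher in ungrafted area opaca over central epiblast. Of 275 recomputed log2 ratios of single members, 61 moved by more than counting error, most of them on the FPKM scale, and none changed sign among called values. In neural plate over posterior preplacodal region all 5 were called with a minimum of 3 counts. With a ratio of 4, 1 member was called in anterior preplacodal region over non-neural ectoderm and 0 in ungrafted area opaca over central epiblast, where FPKM with a pseudocount of 0.1 called 2 (GATA2 higher, GATA5 lower). TMM factors shifted every log2 ratio by at most 0.06 except by -0.18 in non-neural ectoderm over ungrafted area opaca and -0.14 in neural plate over anterior pre-streak epiblast. Depth limits GATA4 and GATA5 in the grafted area opaca, with 4 and 3 counts. No paired analysis was possible because each group holds 1 library and the labels carry no replicate numbers; for the same reason no library could be left out of a comparison.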
